A study of Homo sapiens with 12 samples.

Results

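The nuclear genes described here, 7 in number, serve the mitochondrial ribosome, protein import and protein quality control, and were followed across 12 RNA-seq libraries made from the human keratinocyte line HaCaT. They were MRPL54, MRPL36 and MRPS30 (mitochondrial ribosome), TIMM13 (import), CLPP and LONP1 (proteases of the matrix) and STOML2 (a scaffold of the inner membrane). These 7 of the 61498 entries in the count tables were taken by name and function from lists of mitochondrial genes, and by position, in or beside chromosome stretches where gene names and reads match. Of the 166 genes on those lists, 101 had a mean under 1 CPM (the read count scaled to the total of its library), and 10 lay in such stretches.

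The cells were HaCaT derivatives carrying a control short hairpin RNA (shControl, labelled as wild type) or a hairpin that knocks down MLL1, UTX or NRF2. MLL1 is the product of KMT2A and places methyl groups on lysine 4 of histone H3, and UTX, from KDM6A, removes them from lysine 27. NRF2, from NFE2L2, switches on antioxidant genes. Each of the 4 derivatives was sequenced untreated, after 24 h with 100 µM hydrogen peroxide (H2O2), and after 24 h with cerium oxide nanoparticles (CeO2) at 25 µg/mL, as 1 library per combination. All cells carried a hairpin, and each knockdown is known here by a single label, with no second hairpin or clone given. The labels do not say that libraries came from separate cultures, and the 3 libraries sharing a hairpin are no independent knockdowns. Every p-value therefore measures only the spread among these libraries.

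Mitochondria carry their own small genome, whose messages are translated inside the organelle by a ribosome built almost wholly from nuclear-encoded proteins such as MRPL54, MRPL36 and MRPS30. Those proteins, like most others of mitochondria, are made in the cytosol and pulled in through translocases, where small chaperones such as TIMM13 guide hydrophobic proteins across the space between the membranes. Once inside, misfolded or oxidised proteins are cut up by the ATP-dependent proteases LONP1 and CLPP, the latter working with the unfoldase CLPX, and STOML2 helps to organise the inner membrane and the complexes in it. LONP1 in particular is known for removing oxidised proteins of the matrix.

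Total counts per library ran from 5388335 to 7670446, and genes of the mitochondrial genome took 7.41% to 10.0% of them. KMT2A, the target of the MLL1 hairpin, had 32.0 to 99.7 CPM in the 3 shMLL1 libraries. It had 291 to 339 CPM in shUTX and 455 to 573 CPM in shControl and shNRF2. KDM6A had at most 1 count in each shUTX library and 4 to 6 counts elsewhere, and NFE2L2 had 0 in each shNRF2 library and 1 to 16 elsewhere, so those checks rest on a handful of reads. A count of 0 allows up to 3 counts, or 0.391 to 0.557 CPM. Many genes that every cell uses were near 0 under their own names: of 745 such genes checked, 453 had under 1 CPM. In 4 chromosome stretches, on chromosomes 5, 9, 11 and 19, 32 of 33 such genes reached 30 CPM, against 155 of 712 outside (21.8%). The stretches were found from these same genes at that level, so this contrast follows from their definition. Among coding genes not used to find them, 307 of 502 inside reached 1 CPM (61.2%), against 6121 of 18548 outside (33.0%). Of the 12 keratinocyte markers, 7 were under 1 CPM and 5 of those at 0 in every library, KRT5 among them, and their summed level was 166 to 248 CPM. None of the 12 lies in a matched stretch, so the labelled cell type could not be checked by name. KMT2A, KDM6A and NFE2L2 lie outside the stretches too, so the knockdown checks carry the same doubt. Fibroblast markers summed to 0.344 to 2.62 CPM, melanocyte markers to 0.702 to 2.59, immune markers to 5.51 to 15.0 and endothelial markers to 0 to 0.707, with the same limit.

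On GRCh38, MRPL54 (ENSG00000183617) lies at chr19:3762664-3768575 on the plus strand, and the other 3 genes of that chromosome, all within the matched stretch from 531712 to 6393981, are TIMM13 (ENSG00000099800, chr19:2425624-2427894, minus), LONP1 (ENSG00000196365, chr19:5691834-5720572, minus) and CLPP (ENSG00000125656, chr19:6361452-6368910, plus). MRPL36 (ENSG00000171421, chr5:1798386-1801366, minus) and STOML2 (ENSG00000165283, chr9:35099776-35103195, minus) also lie inside matched stretches. MRPS30 (ENSG00000112996, chr5:44808925-44820428, plus) does not: the chromosome 5 stretch ends at 40835335. Its nearest coding genes on the lower side were read much as those of the other members, with 9 of 10 reaching 1 CPM, but on the higher side only 1 of 10 did. MRPS30 therefore sits at an edge, and its name is less sure than the other 6. Inside the chromosome 11 stretch, the ribosomal gene MRPL23 had a mean of 0.326 CPM, so a name in a stretch is not always matched.

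Of the members, 3 share exonic sequence with a neighbour that is read more strongly or on the other strand, and the use of strand in counting is not given in the sources. TIMM13 shares 257 exonic bases with LMNB2 on the same strand (mean 3196 CPM) and 313 with TMPRSS9 on the opposite strand (3.78 CPM). LONP1 shares 43 bases with the opposite-strand RPL36 (1445 CPM). CLPP shares 35 bases with an antisense entry at 0.059 CPM. Reads from such shared bases cannot be told apart.

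Promoter sequence is shown for MRPS30, the one member called against shControl in the full set of libraries, for STOML2, the member with the highest mean CPM (449), and for MRPL36, which differed between 2 knockdowns. The runs are RefSeq sequence of GRCh38.p14 upstream of the annotated start, 5′ to 3′ on the gene's own strand and cut to bases outside annotated exons, with motif matches in capitals. ATTGG is the CCAAT box read on the other strand, CCGGAAG an ETS-factor core, and the run in capitals in MRPL36 a match to the site of NRF1, nuclear respiratory factor 1, an activator of mitochondrial genes that is not the NRF2 targeted here.
MRPS30, chr5:44808778-44808924, plus strand: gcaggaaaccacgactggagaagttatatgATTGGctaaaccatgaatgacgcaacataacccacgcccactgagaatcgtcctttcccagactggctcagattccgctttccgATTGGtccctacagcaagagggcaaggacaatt
STOML2, chr9:35103196-35103445, minus strand: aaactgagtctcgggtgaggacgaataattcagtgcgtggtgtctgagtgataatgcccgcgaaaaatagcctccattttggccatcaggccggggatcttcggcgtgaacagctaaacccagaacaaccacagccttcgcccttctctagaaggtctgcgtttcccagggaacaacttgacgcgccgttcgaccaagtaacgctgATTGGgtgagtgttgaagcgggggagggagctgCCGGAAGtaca
MRPL36, chr5:1799896-1800087, minus strand: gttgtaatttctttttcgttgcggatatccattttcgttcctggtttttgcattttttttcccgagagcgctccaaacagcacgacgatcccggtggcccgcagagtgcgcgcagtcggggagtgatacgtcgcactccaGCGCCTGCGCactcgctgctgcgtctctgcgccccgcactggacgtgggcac

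A set of 6 motifs was searched on both strands of the 250 bases before the start in 35116 RefSeq promoters, of which 6 members had at least 1. The CCAAT box (CCAAT) was found in 32.0% of all promoters and in those of MRPS30, with 2 matches at positions -139 and -55 from the start, and STOML2, at -44. The ETS core (CCGGAAG, 8.52% of all) was found in 4 members, namely LONP1, MRPL54, STOML2 and TIMM13, and the NRF1 site (5.07%) in LONP1 and MRPL36. The antioxidant response element core (TGACNNNGC, 10.9%), which NRF2 binds, was matched in TIMM13 alone, and a YY1 site (GATGGCGG, 1.09%) in MRPL36 alone. TGATGNAA (3.14% of all), a form of the composite site of ATF4 and CHOP, 2 factors of the mitochondrial stress response, was matched in none of the 6. A match describes these letters only, and no binding was measured.

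Levels below are CPM scaled by TMM, a between-library normalization, and each member had 655 to 3528 reads per library, so counting error is small beside the spread between libraries. Per kilobase of annotated exon, STOML2 was read most, at 249 ± 30.4 CPM per kilobase (SD over the 12 libraries). MRPL54 (144 ± 33.5) and TIMM13 (139 ± 23.5) followed, then MRPL36 (107 ± 19.1), CLPP (106 ± 17.1), LONP1 (84.8 ± 11.5) and MRPS30 (58.6 ± 10.2). Every pair of neighbours in this order had overlapping ranges over the 12 libraries. Annotated exon length counts each exonic base of all transcripts once and was 6202 bases for MRPS30 against a median transcript of 1205.5, so the value per kilobase is low for genes of many isoforms. The order depended on the length used: per kilobase of median transcript LONP1 was first (472 ± 64.2), then STOML2 (352 ± 42.9), CLPP (323 ± 52.4), MRPS30 (302 ± 52.5), MRPL54 (259 ± 60.2), MRPL36 (244 ± 43.6) and TIMM13 (210.0 ± 35.7), and neighbours again overlapped.

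Among the ribosomal genes, MRPL54, a protein of the large subunit, was the most variable member. It stood at 235, 112 and 128 CPM in the untreated, H2O2-exposed and CeO2-exposed shControl libraries. In the same order it had 182, 135 and 150.2 CPM in shMLL1, 134, 116 and 139.9 in shUTX, and 144, 124 and 136 in shNRF2. Untreated shControl was the highest and H2O2-exposed shControl the lowest of all 12 libraries, a range of 2.10-fold within 1 derivative. H2O2-exposed cells had the lowest level of the 3 treatments in each derivative.

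MRPL36, also of the large subunit and the nuclear homologue of a bacterial ribosomal protein, had 189, 124 and 123 CPM in shControl in that order. In shMLL1 it had 142, 112 and 124 CPM, in shUTX 182, 173 and 179, and in shNRF2 148, 152 and 134. The 3 shUTX libraries lay above every other library except untreated shControl, and the 3 shMLL1 libraries all lay below them.

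MRPS30, named after the small subunit but placed in the large one in structures of the human mitoribosome, had 373, 317 and 276 CPM in shControl. It stood at 422, 408 and 397 CPM in shMLL1, at 432, 438 and 415 in shUTX, and at 289, 321 and 278 in shNRF2. All 6 shMLL1 and shUTX libraries were above all 6 shControl and shNRF2 libraries.

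TIMM13, the import chaperone, had 360.4, 206 and 225 CPM in shControl and 339, 268 and 304 CPM in shMLL1. It had 285, 264 and 301 CPM in shUTX and 249.8, 232 and 248 in shNRF2. As for MRPL54, H2O2-exposed cells were lowest in each derivative, and the spread was widest in shControl.

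CLPP, the proteolytic subunit of the ClpXP protease, had 306, 217 and 207 CPM in shControl and 320.1, 267 and 263 in shMLL1. Its level was 220.4, 224 and 220.3 CPM in shUTX and 205, 224 and 216 in shNRF2. The shMLL1 libraries were above all shUTX and shNRF2 libraries, while the shUTX libraries hardly differed from one another.

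LONP1, the Lon protease, had 530.0, 426 and 419 CPM in shControl, 410.4, 395 and 421 in shMLL1 and 508, 469 and 494 in shUTX. In shNRF2 it had 334, 405 and 364 CPM, all 3 below every shControl and shUTX library. Untreated shNRF2 was the lowest library for LONP1, and there the exposed libraries were the higher ones.

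STOML2, the membrane scaffold, varied least, by 1.45-fold between its lowest and highest library. It had 547, 388 and 377 CPM in shControl, 486, 449 and 431 in shMLL1, 489.6, 497 and 507 in shUTX, and 395, 422 and 404 in shNRF2. For 5 of the 7 members the highest library was untreated shControl; the exceptions were CLPP, highest in untreated shMLL1, and MRPS30, highest in H2O2-exposed shUTX.

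**Figure D1:**
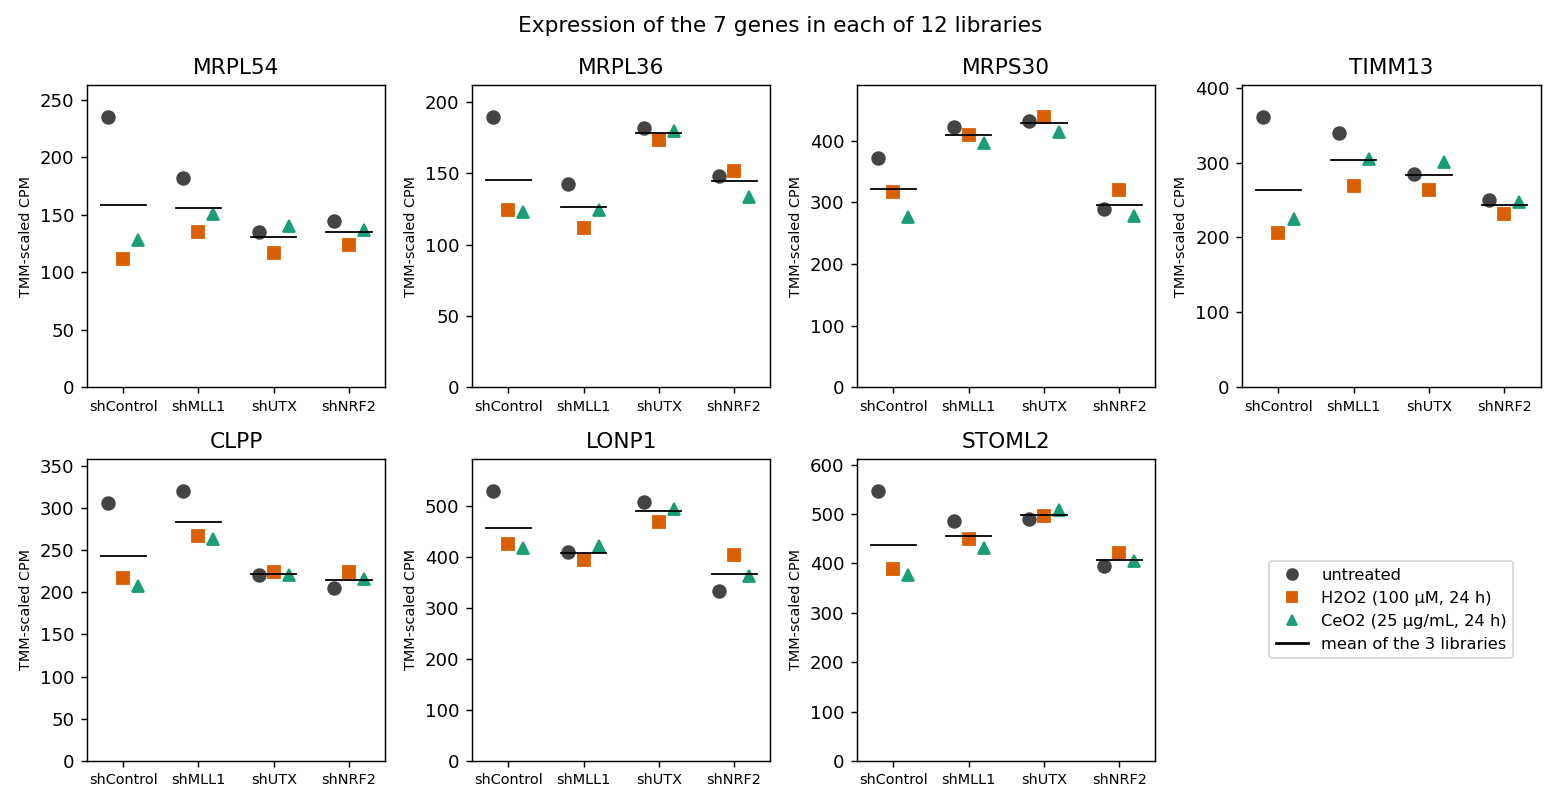
Level of each of the 7 genes (TMM-scaled CPM, vertical axis from 0) in each of the 12 libraries, by derivative (horizontal axis) and treatment (symbols), with the mean of the 3 libraries of a derivative as a line. Untreated shControl stands above both exposed shControl libraries for all 7 genes, and MRPS30 is higher in shMLL1 and shUTX than in shControl and shNRF2.

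Members were compared between derivatives with edgeR's quasi-likelihood test, in a fit of derivative and treatment to all 10800 entries with enough reads, all 7 members included. Adjusted p is by the Benjamini-Hochberg method over those entries, and a call is an adjusted p of at most 0.05. Differences are log2 ± SE, and since these are bulk libraries, fewer cells holding an RNA and less of it per cell cannot be told apart. The comparisons with shControl share its 3 libraries, so their values stand side by side and do not support one another. Where libraries are said not to overlap, the share of all entries doing the same was not computed, so this only describes the values. A count of calls under another setting or tool with no share beside it likewise only describes the members.

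With the MLL1 hairpin 1 of 7 members was called, against 12.2% of all entries tested: MRPS30 was higher by 0.35 ± 0.09 (adjusted p = 0.0153), its 3 libraries above the 3 of shControl without overlap. Leaving out H2O2-exposed shControl, CeO2-exposed shControl or any of the shMLL1 libraries lost the call (adjusted p 0.0519 to 0.109). CLPP (0.23 ± 0.11, adjusted p = 0.213), TIMM13 (0.22 ± 0.12, 0.273), MRPL36 (-0.19 ± 0.12, 0.330) and LONP1 (-0.16 ± 0.10, 0.332) did not pass, nor did STOML2 and MRPL54. The median over the 7 was 0.07, beside 0.01 over all entries and -0.10 over the 451 entries of the matched stretches.

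With the UTX hairpin 1 of 7 was again called, against 26.3% of all entries: MRPS30 was higher by 0.42 ± 0.09 (adjusted p = 0.00259), with no overlap of the libraries. In a fit of only the 6 libraries compared its adjusted p was 0.0524. Without untreated shUTX or untreated shNRF2, MRPL36 was called as well, making 2. MRPL36 (0.31 ± 0.12, adjusted p = 0.0570) and STOML2 (0.20 ± 0.11, 0.183) were above 0 without passing, and MRPL54 was below it (-0.23 ± 0.15, 0.283). The median over the members was 0.13, beside 0.00 over all entries and -0.07 over the matched stretches.

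With the NRF2 hairpin none of the 7 was called, against 5.33% of all entries. LONP1 came nearest, at -0.31 ± 0.10 (adjusted p = 0.0831), and its 3 shNRF2 libraries did not overlap those of shControl. Without the CeO2-exposed shControl library it passed (-0.38, adjusted p = 0.0422). The unadjusted p was at most 0.05 for LONP1 alone, against 20.1% of all entries, and neither DESeq2 nor limma-voom called a member. The members' median was -0.12, beside 0.01 over all entries and -0.07 over the matched stretches.

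**Figure D2:**
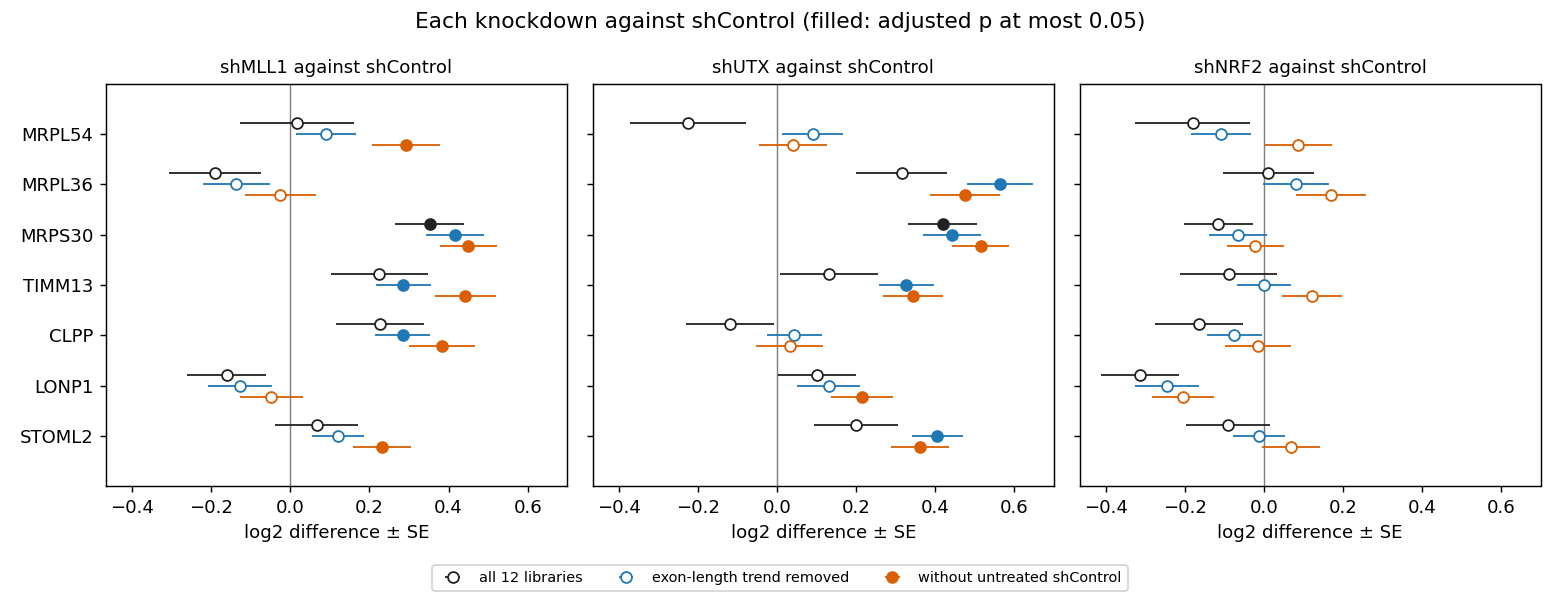
Difference of each knockdown from shControl (log2 ± SE, horizontal axis) for the 7 genes, from all 12 libraries, after removal of the exon-length trend, and without untreated shControl. Filled points have an adjusted p of at most 0.05: MRPS30 is filled in all 3 settings with the MLL1 and UTX hairpins, and no gene is filled with the NRF2 hairpin.

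Comparisons between knockdowns use no shControl library in the difference itself. Between shUTX and shMLL1, 2 of 7 members were called (background 18%): MRPL36 was higher with the UTX hairpin by 0.51 ± 0.12 (adjusted p = 0.00689) and CLPP lower by 0.35 on the log2 scale, that is -0.35 ± 0.11 (0.0434). MRPL36 missed the threshold without H2O2-exposed shMLL1 (0.0545) or CeO2-exposed shUTX (0.0536). CLPP missed it without any of the 6 libraries compared or without either exposed shNRF2 library (0.0553 to 0.225).

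Between shNRF2 and shMLL1, 2 of 7 were called (11.3% of all entries), both lower with the NRF2 hairpin: MRPS30 at -0.47 ± 0.09 (adjusted p = 0.00254) and CLPP at -0.39 ± 0.11 (0.0340). MRPS30 passed in all 22 other settings tried, while CLPP missed the threshold without any of the 6 libraries compared or either exposed shUTX library (0.0507 to 0.200).

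Between shNRF2 and shUTX, 2 of 7 were called (23.4% of all entries), both lower with the NRF2 hairpin: MRPS30 at -0.53 ± 0.09 (adjusted p = 0.000472) and LONP1 at -0.41 ± 0.10 (0.00709). Both passed in all 22 other settings, with adjusted p up to 0.00630 for MRPS30 and 0.0481 for LONP1. STOML2 (-0.29 ± 0.11, 0.0603) and MRPL36 (-0.30 ± 0.12, 0.0710) were below 0 without passing, and without untreated shUTX both passed, making 4. Without untreated shControl, which belongs to none of the groups in these 3 comparisons, the counts were higher: 4 of 7 between shUTX and shMLL1 (27.8% of all entries), 4 between shNRF2 and shMLL1 (21%) and 5 between shNRF2 and shUTX (33.5%).

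Exposure was tested across the 4 derivatives in the same fit. After H2O2 none of the 7 members was called, and neither was any other entry (0% of all tested). All 7 estimates were below 0, from -0.03 for MRPS30 to -0.50 ± 0.13 for MRPL54 (adjusted p = 0.122) and -0.35 ± 0.11 for TIMM13 (0.148). Their median was -0.16, beside 0.02 over all entries and -0.08 over the matched stretches. At an unadjusted p of at most 0.05 stood 3 of 7 members (MRPL54, TIMM13 and MRPL36), against 19.5% of all entries. DESeq2 called 1 member, MRPL54 (adjusted p = 0.0229), and limma-voom none.

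After CeO2 none of the 7 was called (0.0185% of all entries). Again all 7 estimates were below 0, the lowest being -0.31 ± 0.13 for MRPL54 (adjusted p = 0.245), -0.25 ± 0.10 for MRPL36 (0.239) and -0.20 ± 0.10 for CLPP (0.294), and LONP1 stood nearest to 0 at -0.06 ± 0.09. The members' median was -0.20, beside 0.00 over all entries and -0.09 over the matched stretches. Of the 7, 2 had an unadjusted p of at most 0.05, against 17.5% of all entries, and neither DESeq2 nor limma-voom called one. The exposures share their untreated libraries. H2O2 and CeO2 set against each other gave no call among the 7 (0.037% of all entries), with estimates from -0.19 for MRPL54 to 0.13 for MRPS30 and no unadjusted p of at most 0.05 (6.2% of all entries).

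Within a derivative, exposed and untreated cells could be compared as 1 library against 1, with exact 95% intervals that cover counting error only. In shControl all 7 intervals lay below 1 for both agents. The ratio of H2O2-exposed to untreated cells ran from 0.476 (0.437 to 0.518) for MRPL54 to 0.851 (0.804 to 0.901) for MRPS30, with TIMM13 at 0.572 (0.536 to 0.610). For CeO2 it ran from 0.546 (0.503 to 0.593) for MRPL54 to 0.790 (0.752 to 0.830) for LONP1. The same direction was common among their neighbours: of 346 coding genes of the matched stretches 72.0% were lower with H2O2 and 72.5% with CeO2, at a median log2 ratio of -0.21 and -0.27. Over all entries 47.2% and 49.0% were lower, and the medians were 0.03 and 0.02. Here and for the other derivatives such shares count any lower level, however small. Intervals were computed for the members only, so counts of intervals and these shares are unlike measures.

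In shMLL1, 5 of the 7 intervals lay below 1 with H2O2 and 6 with CeO2, and none lay above. MRPL54 was again the lowest with H2O2, at 0.739 (0.676 to 0.809), and LONP1 included 1 with both agents. Of all entries 49.0% were lower with H2O2 and 49.8% with CeO2, and of the 346 coding genes 65.6% and 67.6%. In shUTX 3 intervals lay below 1 with H2O2, led by MRPL54 at 0.864 (0.776 to 0.962), and none of the 7 with CeO2, while 50.4% and 50.5% of all entries and 51.2% and 45.4% of the 346 coding genes were lower.

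In shNRF2 the direction was mixed. With H2O2, LONP1 was higher than in untreated cells at 1.21 (1.14 to 1.28), as were MRPS30 at 1.11 (1.04 to 1.18), CLPP at 1.09 (1.01 to 1.18) and STOML2 at 1.07 (1.01 to 1.13). MRPL54 was lower at 0.857 (0.778 to 0.942), and so was TIMM13 at 0.927 (0.864 to 0.995). With CeO2, LONP1 was higher at 1.09 (1.03 to 1.15) and MRPL36 lower at 0.900 (0.826 to 0.982). With H2O2 49.6% of all entries and 45.7% of the 346 coding genes were lower, and with CeO2 49.8% and 50.0%. No replicate stands behind any of these ratios.

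**Figure D3:**
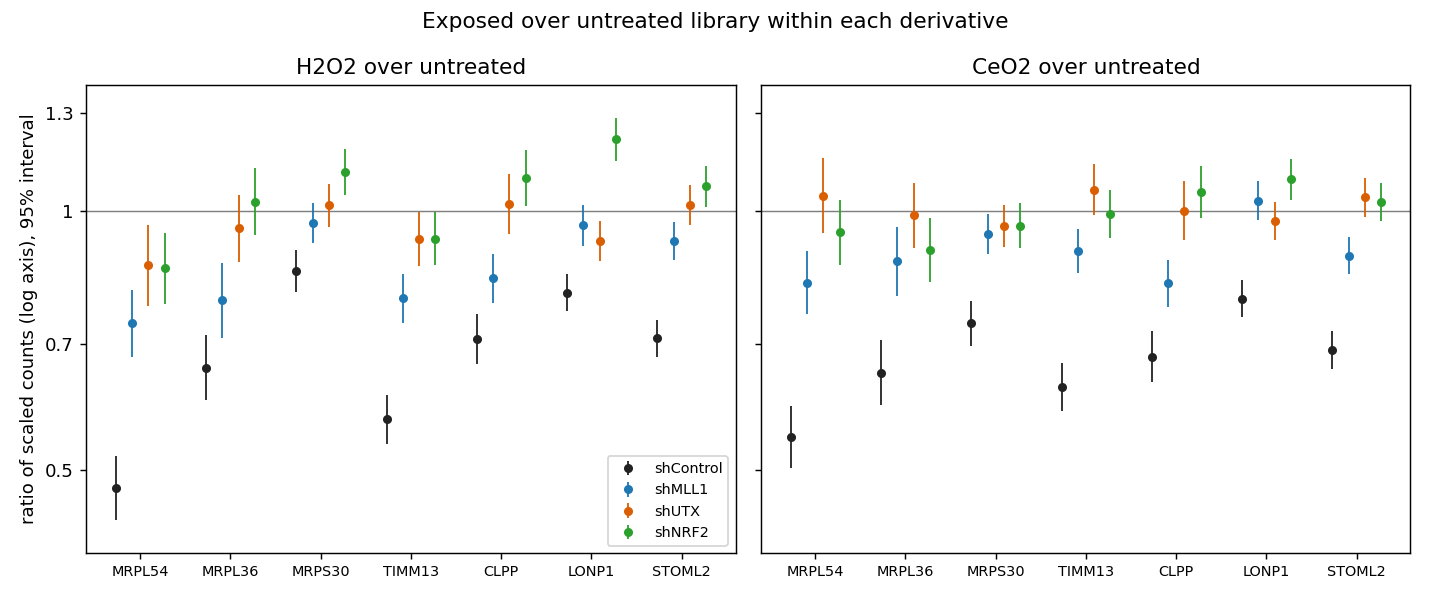
Ratio of exposed to untreated library (log axis) with exact 95% intervals of counting error for the 7 genes, within each of the 4 derivatives, for H2O2 (left) and CeO2 (right). The shControl points lie lowest for every gene with both agents, from 0.476 to 0.851 with H2O2, while those of shUTX and shNRF2 lie around 1.

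An exploratory fit with 3 residual degrees of freedom tested whether the response to exposure, over both agents, differed between a knockdown and shControl. It fitted each untreated library exactly, so its residual spread comes only from the exposed libraries, with the agents standing in as replicates. No spread among untreated libraries enters its p-values, though each contrast rests on them. Positive values mean that exposed cells stood higher, relative to untreated cells, than in shControl. With the NRF2 hairpin all 7 members were called, against 16.6% of all entries, from 0.38 ± 0.12 for MRPS30 (adjusted p = 0.0393) to 0.82 ± 0.13 for MRPL54 (0.000445). With the UTX hairpin 5 of 7 were called (14.4% of all entries): MRPL54 at 0.90 ± 0.14 (0.000346), TIMM13 at 0.73 ± 0.12 (0.000659), MRPL36 at 0.57 ± 0.15 (0.0125), STOML2 at 0.55 ± 0.11 (0.00317) and CLPP at 0.54 ± 0.12 (0.00527). MRPS30 (0.31 ± 0.12, 0.0929) and LONP1 (0.25 ± 0.13, 0.203) did not pass. With the MLL1 hairpin MRPL54 alone was called (0.648% of all entries), at 0.61 ± 0.13 (0.0418), and that call was lost without either exposed shMLL1 or either exposed shUTX library. Without H2O2-exposed shControl the count with the MLL1 hairpin was 3, and without CeO2-exposed shControl 2. MRPS30 lost its call with the NRF2 hairpin without H2O2-exposed shNRF2 or either exposed shMLL1 library, with no filter on low counts (adjusted p = 0.128) and with DESeq2 (0.0869), and was called in 10 of 17 other settings. MRPL36 was called there in 13 of 17: it lost the call without H2O2-exposed shNRF2 and with DESeq2 (0.0568), as it did with the UTX hairpin without CeO2-exposed shUTX. MRPS30 gained a call with the UTX hairpin without H2O2-exposed shControl. Of the 451 entries of the matched stretches, 125 were called with the NRF2 hairpin, 107 with the UTX hairpin and 7 with the MLL1 hairpin. Their median differences were 0.27, 0.27 and 0.14, beside -0.02 over all entries with each hairpin. Over the members the medians were 0.58, 0.55 and 0.35. The contrasts of this fit all subtract the response of shControl, and so share its untreated library.

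That library, and untreated shMLL1 with it, stood apart by annotated exon length. Over 305 coding genes of the matched stretches with at least 5 CPM, the deviation of a gene's log2 CPM from its 12-library mean fell with annotated exon length in untreated shControl (Pearson r across genes -0.376; genes are not independent replicates). The 101 shortest genes had a median deviation of 0.41 there and the 101 longest 0.10. In untreated shMLL1 r was -0.349, with median deviations of 0.17 for the shortest and -0.06 for the longest genes. In the other 10 libraries r ran from -0.138 to 0.169. With the median transcript length in place of exon length, r was -0.169 in untreated shControl and -0.0163 in untreated shMLL1. In the other 10 libraries r then ran from -0.0255 to 0.0575, so by that length untreated shMLL1 did not stand apart.

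The members are mostly short genes. MRPL54, with 1003 exonic bases, lay at the 0.656th percentile of the 305, counting itself and genes no longer than it. MRPL36 (1394), STOML2 (1806), TIMM13 (1973) and CLPP (2278) were among the shortest as well, CLPP at the 14.4th percentile. LONP1 (5085) and MRPS30 (6202) lay near and above the middle. In untreated shControl the deviation was 0.72 for MRPL54 where the trend gave 0.65, 0.42 for TIMM13 (trend 0.47), 0.36 for CLPP (0.43), 0.37 for MRPL36 (0.56), 0.29 for STOML2 (0.50), 0.31 for LONP1 (0.19) and 0.06 for MRPS30 (0.16). MRPL54, the shortest member by exon length, stood farthest above its mean in that library and MRPS30, the longest, nearest to it. Between these the order did not follow exon length: LONP1 (5085 bases) stood above STOML2 (1806), and TIMM13 (1973) above MRPL36 (1394). Median transcripts rank otherwise: 913 bases for LONP1, 1278 for STOML2, 1302 for TIMM13, 610 for MRPL36 and 1205.5 for MRPS30. Whether length accounts for the deviations was not tested.

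**Figure D4:**
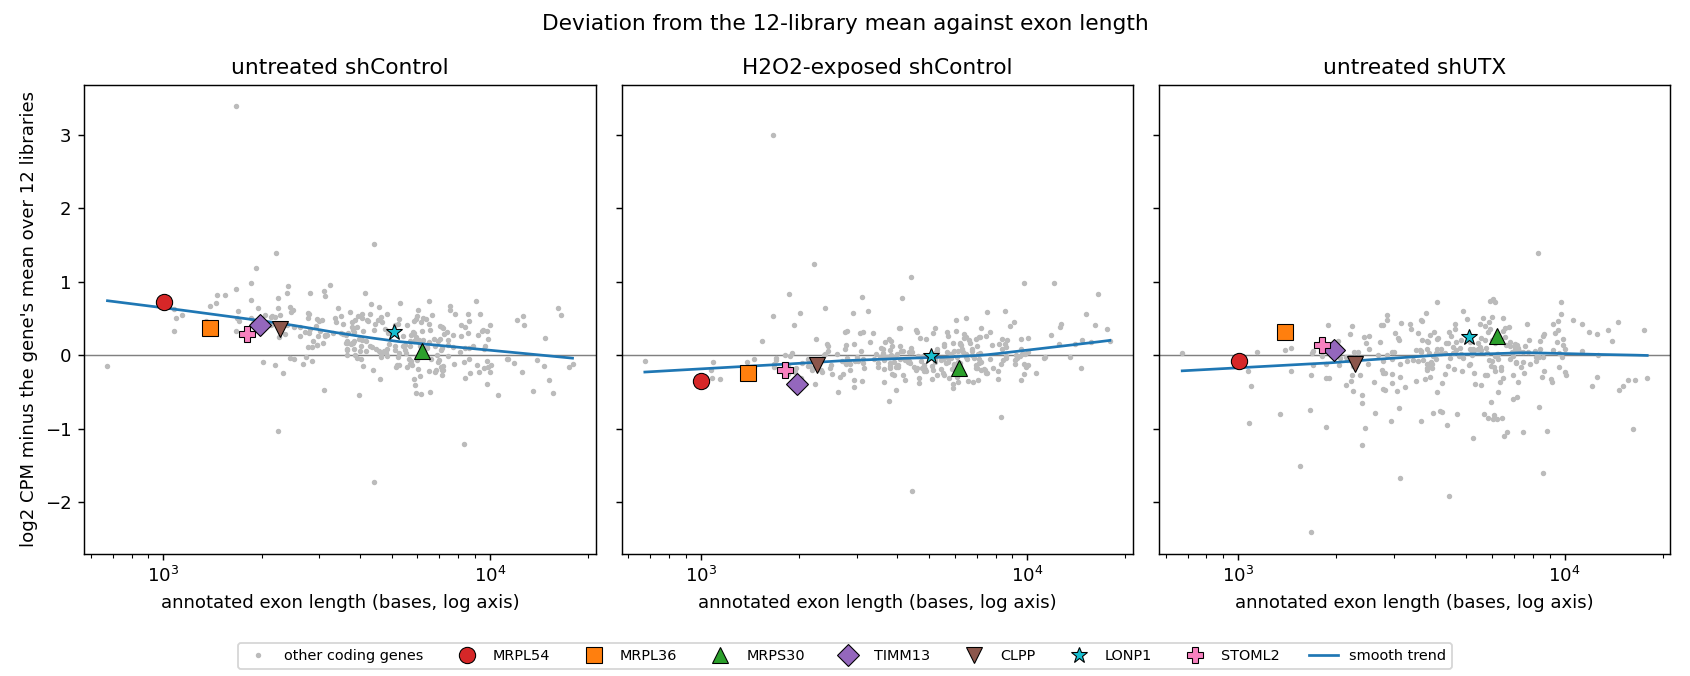
Deviation of each gene's log2 CPM from its mean over 12 libraries (vertical axis) against annotated exon length (log axis) for 305 coding genes and the 7 named genes, in untreated shControl, H2O2-exposed shControl and untreated shUTX. The smooth trend falls with length in untreated shControl, where MRPL54 lies at 0.72, and is nearly flat or rising in the others.

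With the exon-length trend removed from every library, no member kept a changed response with any hairpin (0 of 7 each, against 0.5%, 13.5% and 15.8% of all entries for shMLL1, shUTX and shNRF2). Most entries behind the shares after removal lie outside the matched stretches. They had no trend removed, so these shares are an unlike background for the members. The trend was not centred and was taken only from the members and the other entries of the matched stretches. Its removal therefore also took out each library's level over the stretch genes. Length and that shared level were not told apart, here or with median transcript length. MRPL54 went from 0.82 to -0.08 with the NRF2 hairpin and from 0.90 to 0.11 with the UTX hairpin, and LONP1, the largest left, from 0.53 to 0.28 with the NRF2 hairpin. With the median transcript length, a setting added after seeing the data, fewer were lost: with the UTX hairpin MRPL54 (0.65, adjusted p = 0.00361) and TIMM13 (0.41, 0.0270) were still called (13.6% of all entries), and with the NRF2 hairpin MRPL54 (0.52, 0.0122; 15.9%). The contrast with untreated cells was also tied to length: across the 305 genes the log2 difference correlated with exon length at r = 0.391 for H2O2 and 0.573 for CeO2. After removal of the exon-length trend MRPL54 stood at -0.23 after H2O2 (adjusted p = 0.136) and at -0.07 after CeO2, and 4 of the other members changed sign in one or both, none of them called before or after.

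**Figure D5:**
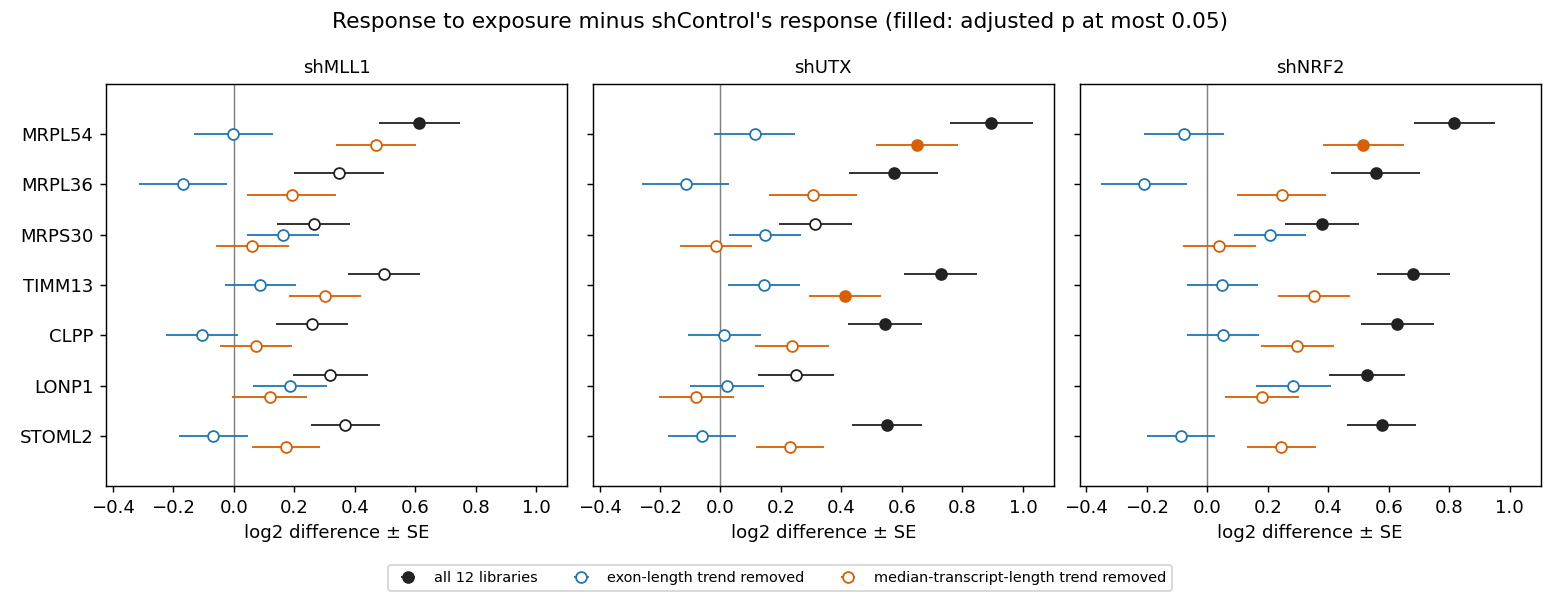
Response to exposure of each knockdown minus that of shControl (log2 ± SE, horizontal axis) for the 7 genes, from all 12 libraries and after removal of either length trend. Filled points have an adjusted p of at most 0.05; with the exon-length trend removed none is filled, and with the median-transcript-length trend removed MRPL54 is filled with the UTX and NRF2 hairpins and TIMM13 with the UTX hairpin.

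Between derivatives the same removal added calls. It again took out the level of the stretch genes along with any tie to length. The shares of all entries after removal are again mostly from entries with no trend removed. Before removal, the median difference from shControl over the matched stretches was -0.10 with the MLL1 hairpin and -0.07 with the UTX hairpin. With the MLL1 hairpin 3 of 7 members were then higher than in shControl (12.6% of all entries): MRPS30 by 0.42 (adjusted p = 0.00155), TIMM13 by 0.29 (0.0127) and CLPP by 0.28 (0.0142). With the UTX hairpin 4 of 7 were higher (26.8% of all entries): MRPL36 by 0.56 (0.000197), MRPS30 by 0.44 (0.000475), STOML2 by 0.41 (0.000403) and TIMM13 by 0.33 (0.00283). Leaving out untreated shControl instead gave 5 of 7 with each of these hairpins (18.1% and 28.7% of all entries). MRPS30 then stood at 0.45 (7.74e-05) with the MLL1 hairpin and 0.52 (7.50e-06) with the UTX hairpin, TIMM13 and STOML2 were called with both, MRPL54 and CLPP with the MLL1 hairpin, and MRPL36 and LONP1 with the UTX hairpin. With the NRF2 hairpin there was no call among the 7 in either setting (5.55% and 6.95% of all entries), and without that library MRPL54 stood at -0.31 after H2O2 (adjusted p = 0.0543, against 0.4% of all entries called).

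Other genes of the same pathways could be read only where their names matched. Of the 166 listed genes, 4 besides the members lay in matched stretches, and 3 of them passed the filter on low counts: TOMM5, a small subunit of the outer-membrane translocase, FASTKD3, an RNA-binding protein of mitochondria, and MICOS13, a subunit of the complex that shapes the cristae. With the UTX hairpin 2 of 3 were called, both higher than in shControl (26.3% of all entries were called). TOMM5 was at 182, 166 and 185 CPM in untreated, H2O2-exposed and CeO2-exposed shUTX against 132, 115 and 98.9 in shControl (0.63 ± 0.10, adjusted p = 0.000277). FASTKD3 was at 175, 159.8 and 148 CPM against 113, 109.7 and 101 (0.57 ± 0.08, 0.000116). In both, every shUTX library was above every shControl library, and the share of all entries separated in this way was not computed. MICOS13, with 1854 exonic bases, was not called (-0.36 ± 0.14, 0.0669); it had 248 CPM in untreated shControl and 121 to 168 in the other 11 libraries. None of the 3 was called with the MLL1 or NRF2 hairpin against shControl or after either exposure. In the exploratory fit the response of MICOS13 to exposure differed from shControl with the UTX hairpin (0.78 ± 0.14, adjusted p = 0.000879) and the NRF2 hairpin (0.80 ± 0.13, 0.000526) but did not pass with the MLL1 hairpin (0.55 ± 0.13, 0.0568), and TOMM5 and FASTKD3 passed with none.

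To place 6 of the members among the entries of the matched stretches past the filter, log2 levels were correlated over the 12 libraries, a description with no test since all entries share library, depth and length trend. STOML2 was most like CLTA (r = 0.985, and 0.982 without untreated shControl), TIMM13 like SAFB (0.984, 0.981) and CLPP like FAM174C (0.980, 0.973). MRPL36 was most like LINC01018 (0.968, 0.965), MRPL54 like MBD3 (0.921, 0.805) and LONP1 like MELK (0.848, 0.832). None of these 6 belongs to the mitochondrial lists; MICOS13, ranked 3 for likeness to MRPL54 (0.915, 0.773), does. Among the members themselves the 21 pairs had a median r of 0.581 (0.0366 to 0.847), and without untreated shControl 0.562 (-0.262 to 0.914). The closest pair over 12 libraries was MRPL54 with TIMM13, and over 11 MRPS30 with STOML2 (0.914), while MRPL36 and CLPP were the farthest apart in both.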

How the data were processed

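Total RNA was made into TruSeq libraries, per the labels' protocols. The submitters' processing notes list HISAT2 2.2.1, HTSeq 0.11.1, Trimmomatic 0.39 and SAMtools 1.12, with the build GRCh38; settings, annotation and strand use are not given in the sources. The authors deposited whole-number counts for each Ensembl gene, in 2 tables (61498 entries each), which differ in 1 cell of the untreated libraries they share, and untreated counts came from the H2O2 table. Symbols were found for 61490 entries, and GENCODE 29 positions for 58298.

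The members and lists were chosen with earlier results of these data known. Matched stretches (1444 entries) were found with a hidden Markov model of 2 states over 745 genes used by every cell, leaving out the mitochondrial lists (at least 30 CPM counted as read, probability 0.95 inside and 0.25 outside, switch 0.02, at least 3 genes and a median of 150 CPM). The gene families of that panel were chosen after seeing the data.

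Entries with at least 1 CPM in 3 libraries were tested (10800) with edgeR 4.0.16 on R 4.3.3 (quasi-likelihood, TMM, two-sided, Benjamini-Hochberg), with 6 residual degrees of freedom in the additive fit. All p-values called adjusted are from edgeR unless another tool is named. The code was tested on simulated counts. Alternatives were RLE and upper-quartile scaling, no filter or 5 CPM, DESeq2 1.42.0, limma-voom (limma 3.58.1), the other table's untreated counts, only the compared libraries, each library left out, and removal of a loess trend (span 0.75) with exon length or, added after seeing the data, median transcript length. Either trend was removed without centring, from the members and the other entries of the matched stretches only. Named were all members, listed genes in matched stretches, overlapping genes and nearest coding neighbours (not all are given), and the entries most like each member, of which 1 result is not reported here.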

Additional observations from a re-analysis of the deposited data

Results flagged for a closer look

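A difference between a knockdown and shControl in the response to exposure passed edgeR's test of that difference for 13 combinations of gene and hairpin. With the NRF2 hairpin the log2 differences were 0.82 for MRPL54, 0.56 for MRPL36, 0.38 for MRPS30, 0.68 for TIMM13, 0.53 for LONP1, 0.63 for CLPP and 0.58 for STOML2. For the UTX hairpin they were 0.90 for MRPL54, 0.57 for MRPL36, 0.73 for TIMM13, 0.54 for CLPP and 0.55 for STOML2. For the MLL1 hairpin MRPL54 alone passed, at 0.61. Of the 451 entries of the matched stretches, 125 passed with the NRF2 hairpin, 107 with the UTX hairpin and 7 with the MLL1 hairpin. All 13 subtract the same shControl response and rest on 1 untreated shControl library, in which short genes stood high (r with exon length -0.376). In untreated shMLL1 r was -0.349. With median transcript length r was -0.169 in untreated shControl and -0.0163 in untreated shMLL1. None of the 13 passed once the exon-length trend was removed, and 3 did with the trend of median transcript length removed. Either removal also took out each library's level over the genes of the matched stretches. Differences between the knockdowns' responses were not tested. The fit matched each untreated library exactly, so no spread among untreated libraries enters these tests.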

How the results depend on the processing

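Counts of members called, out of 7, moved as follows. The share of all entries called under the same setting is not given here. It can differ between settings, so these counts describe the members' calls only. Removing the exon-length trend gave 3 for shMLL1 and 4 for shUTX against shControl (each 1 before), 4 for shUTX against shMLL1 and 5 for shNRF2 against shUTX (each 2 before), and 0 for each changed response. With median transcript length the counts were 3, 3 and, for shNRF2 against shUTX, 4, and the changed responses gave 0 for shMLL1, 2 for shUTX and 1 for shNRF2. Only the compared libraries gave 0 for shUTX against shControl, 4 for shUTX against shMLL1 and 5 for shNRF2 against shUTX. No filter gave 2 for shUTX and 1 for shNRF2 against shControl, 2 for H2O2 and 1 for CeO2. DESeq2 gave 1 for H2O2. The changed response with the MLL1 hairpin was 2 with RLE sizes and 0 with upper-quartile scaling, a 5 CPM filter or DESeq2.

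Leaving out 1 library in turn gave 0 to 5 for shMLL1 against shControl, 1 to 5 for shUTX, 0 to 1 for shNRF2, 0 to 4 for shUTX against shMLL1, 1 to 4 for shNRF2 against shMLL1, 2 to 5 for shNRF2 against shUTX, 0 for each exposure and for H2O2 against CeO2, and 0 to 3, 4 to 6 and 5 to 7 for the changed responses of shMLL1, shUTX and shNRF2. Leaving out untreated shControl gave the highest count of these in all comparisons of derivatives except shNRF2 against shControl. Shares of all entries called moved too, without that library from 18% to 27.8% for shUTX against shMLL1. For shNRF2 against shUTX they went from 23.4% to 33.5%. Shares for the other libraries left out are not given, so these counts describe the members only. Changed responses were not run without an untreated library.

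Signs turned in 70 of 1743 single-gene values over all comparisons and settings, none of them called after the turn. Of these, 31 were between derivatives, in estimates that did not pass: against shControl, MRPL54 ran from -0.12 to 0.29 with the MLL1 hairpin, from -0.36 to 0.09 with the UTX hairpin and from -0.32 to 0.09 with the NRF2 hairpin. TIMM13 ran from -0.21 to 0.12 with the NRF2 hairpin and CLPP from -0.21 to 0.04 with the UTX hairpin. Another 16 were between H2O2 and CeO2. After H2O2 with the exon-length trend removed MRPS30 stood at 0.0328, LONP1 at 0.0229, CLPP at 0.0123 and STOML2 at 0.0718, and with median transcript length MRPS30 stood at 0.0863 and LONP1 at 0.0525. Over the leave-one-out fits MRPS30 ran from -0.0764 to 0.0413 and LONP1 from -0.1404 to 0.0272 after H2O2, and LONP1 from -0.1406 to 0.0259 after CeO2, above 0 without untreated shControl alone. After CeO2 LONP1 turned to 0.0188 and 0.0499 with either length trend removed, and STOML2 to 0.0318 with the exon-length trend removed. That removal turned the changed response with the MLL1 hairpin of MRPL54 (-0.0014), MRPL36 (-0.168), CLPP (-0.105) and STOML2 (-0.067), with the UTX hairpin of MRPL36 (-0.116) and STOML2 (-0.0615), and with the NRF2 hairpin of MRPL54 (-0.0763), MRPL36 (-0.209) and STOML2 (-0.0876). With median transcript length MRPS30 (-0.0148) and LONP1 (-0.0797) turned with the UTX hairpin. The cause was not tested.

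No paired analysis was possible because the labels give no replicate numbers: each combination has 1 library. The additive fit matches exposures within a derivative and derivatives within a treatment. Every member had at least 655 reads per library. Names outside the matched stretches, MRPS30 included, carry the doubt stated with its position.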
